A study of Mus musculus with 36 samples.

Results

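Populations D and E are 2 of the 6 sorted cell populations of the mouse brain (Neg, A, B, C, D and E) profiled in this RNA-sequencing series, and the question here is which transcripts differ between them. The libraries were taken by their labels: 12 of the 36 in the series, 6 of D and 6 of E, each made of 2 libraries from the olfactory bulb, 2 from the cortex and 2 from the brainstem. All 12 belong to a single run of library numbers, which the labels do not call a batch. Both populations are labelled as astrocytes from the brain of C57/Bl6 mice, while the series' design text speaks of cell lines. No genotype other than the strain, no age, no treatment, no number of animals and no pooling is given for either population. Whether the 2 libraries of a population and region stem from different mice is not stated, and the p-values below measure only how these libraries spread. The labels do not name the antigens that separated D from E. The work these populations come from is known to have sorted cells of Aldh1l1 reporter mice by surface proteins that include integrin alpha V (Itgav), Cd63 and the transferrin receptor (Tfrc).

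Astrocytes take up glutamate and GABA, buffer potassium, contact blood vessels with their endfeet and supply neurons with lactate and other metabolites. Their transcriptomes differ between brain regions and, as sorting by surface proteins has shown, between populations within a region. Immediate early genes, which recur below, are transcribed within minutes of a stimulus without new protein synthesis. They encode transcription factors such as Fos, Jun and Egr1 and feedback regulators such as Dusp1 and Zfp36, and they are known to respond to the dissociation of brain tissue before sorting.

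The libraries of E held fewer genes than most libraries of D. FPKM (fragments per kilobase of transcript, scaled by the mapped fragments of the library) was summed per gene, and genes at 1 FPKM or more numbered 8691 and 8074 in olfactory bulb D, 8255 and 2999 in cortex D and 7704 and 7778 in brainstem D. They numbered 3691 and 5849 in olfactory bulb E, 5191 and 6779 in cortex E and 3480 and 3002 in brainstem E. Thus 5 libraries of D lay above all 6 of E, and cortex D replicate 2 lay below all of them. The means were 7250.2 ± 2113 in D and 4665 ± 1501 in E (SD, n = 6 each), a difference of 2585 genes that did not pass an exact permutation test within regions (two-sided p = 0.0556, smallest possible 0.00926). Without cortex D replicate 2 the difference was 3435 genes (exact permutation p = 0.0185, the smallest possible with 11 libraries). Without the 2 shallowest libraries, both of E, it was 2045 genes (exact permutation p = 0.185, smallest possible 0.0370). Fewer cells of a kind in a sample and less RNA per cell cannot be told apart in such bulk libraries. The part of mitochondrial RNA, given below, in these counts was not tested, and that of depth only by leaving out the 2 shallowest libraries.

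**Figure D1:**
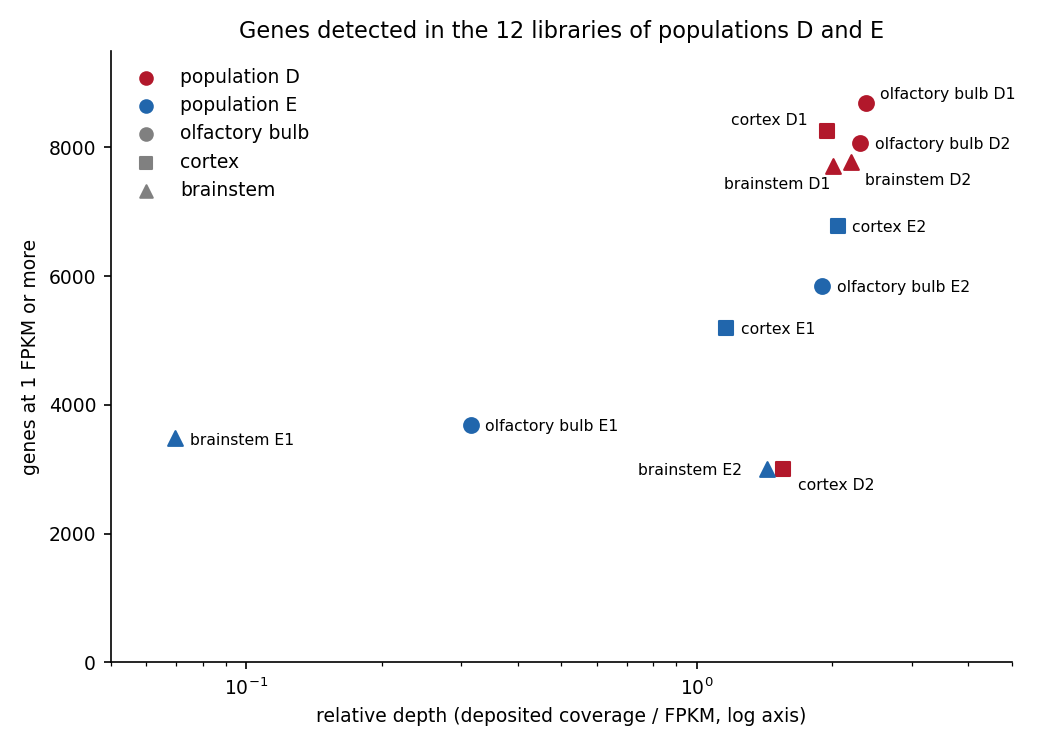
Number of genes at 1 FPKM or more (vertical axis) against relative depth (horizontal log axis) in each of the 12 libraries, red for D and blue for E, with the marker giving the region. The 5 libraries of D other than cortex D replicate 2 lie between 7704 and 8691 genes, and the 2 shallowest libraries, both of E, lie far to the left.

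Several libraries stood apart, and the counts over all genes are given with and without them. Relative depth (coverage divided by FPKM) was 0.0695 in brainstem E replicate 1 and 0.315 in olfactory bulb E replicate 1, against 1.16 to 2.37 in the other 10. The interval deposited for a transcript near 10 FPKM had a median half-width of 63.0% and 34.2% of the value in those 2 libraries and of 11.9% to 16.0% in the others. Rank correlation over 7645 genes placed brainstem E replicate 1 closest to brainstem D replicate 1 (Spearman's rho 0.696), ahead of its own replicate (0.381). Of its 3480 genes at 1 FPKM or more, 95.6% were also at 1 FPKM or more in brainstem D replicate 1, against 83.0% to 88.8% in the other 4 libraries of D outside cortex D replicate 2. In olfactory bulb E replicate 1, the highest such share was 90.5%, with olfactory bulb D replicate 1. Whether libraries were exchanged or mixed was not tested. Genes typical of the olfactory bulb (15 listed, among them Penk, Dlx5 and Cdhr1) had a mean log2(FPKM + 1) of 1.84 in brainstem D replicate 2 and 1.94 in cortex E replicate 2, against 0.15 to 0.58 in the other 6 libraries of cortex and brainstem and 1.31 to 2.53 in the 4 of the olfactory bulb. Hindbrain patterning factors, which would mark the brainstem, were too low to test in any region: 0 of 15 passed the filter, 7 were listed at 0 in all 12 libraries, and their sum was 3.35 FPKM or below. Cortex D replicate 2 resembled the cortex Neg libraries (rho 0.493 and 0.488) more than cortex D replicate 1 (0.327).

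No gene passed the test of D against E. The test covered 10748 genes, those that reached 1 FPKM in a minimum of 2 libraries. Among them limma with region as a block called 0 higher in D (0%) and 0 higher in E (0%) at an adjusted p under 0.05, and the smallest adjusted p was 0.111. At an unadjusted p under 0.05 there were 1767 genes higher in D (16.4%) and 11 higher in E (0.102%). The median difference over all genes was 0.60 on the log2(FPKM + 1) scale, and 88.9% of genes lay above 0, toward D. The FPKM listed for transcripts of the mitochondrial genome went with this shift: it summed to between 22488 and 54223 in the libraries of D and between 65260 and 790664 in those of E, so that every library of E lay above every library of D. Of 10 such transcripts, 3 to 7 had no estimate in each library of D and 0 to 4 in each of E. The value of 0 was that of the 2 shallowest libraries, both of E, which held the highest sums, 790664 and 483724. The other libraries of E lacked 3 or 4 transcripts and summed to between 65260 and 116717. Sums other than those of the 2 shallowest libraries are therefore incomplete, and complete and incomplete sums cannot be compared directly. The nuclear FPKM sum lay between 41324 and 148661 for libraries of D, and between 23005 and 70447 for those of E. The part of mitochondrial RNA in the differences of nuclear genes was not tested. In the raw values, the lowest library of D lay above the highest of E for 99 genes (0.921%), and the reverse held for 0 (0%). Quantile normalization, which gives every library the same distribution, moved the median to -0.03. It left 399 genes higher in D (3.71%) and 223 higher in E (2.07%) at an unadjusted p under 0.05, and 0 called. Rescaling each library to a sum of 1000000 over its nuclear genes gave a median of 0.66, with 70.9% of genes above 0. The pseudocount of 1 is then smaller relative to the values, so this median cannot be set directly against 0.60. With a pseudocount of 0.1 on the deposited values, the median was 1.23 and 90.7% of genes lay above 0. After the rescaling, 911 of the 10748 genes were higher in D and 61 higher in E at an unadjusted p under 0.05, and 0 were called. Differences below are therefore to be read against 0.60 as deposited and -0.03 after quantile normalization.

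The counts changed with the libraries fitted. Without the 2 shallowest libraries, both of E, 724 genes were higher in D (6.84%) and 44 higher in E (0.416%) at an unadjusted p under 0.05, with a median of 0.43. Without brainstem D replicate 2 and cortex E replicate 2 there were 1786 (17.6%) and 17 (0.168%), and without all 4 libraries 667 (6.73%) and 31 (0.313%). Leaving out cortex D replicate 2 gave 1269 genes called higher in D (11.9%) and 2 higher in E (0.0187%) of 10684, with a median difference of 0.84. That library holds the fewest genes of D. An alternative added after the data were seen left out every library under 5000 genes. These were cortex D replicate 2, olfactory bulb E replicate 1 and both libraries of brainstem E. It called 0 of 10445 genes in either direction, with a median of 0.51 and 74.0% of genes above 0. Estimating the spread from all 36 libraries in their 18 groups gave 603 higher in D (4.44%) and 3 higher in E (0.0221%) of 13578. Of the 603, 468 were also called without cortex D replicate 2, and 294 were higher in D at an unadjusted p under 0.05 after quantile normalization of the 12 libraries. These fits share the libraries of D and E and are not independent of each other. Many genes below are given with their adjusted p in the 12 libraries. Genes given without it were not called in the 12 libraries either, since the smallest of all genes was 0.111. The number of the 28 alternative settings in which a gene was called is given for the genes the text turns on.

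Markers of astrocytes were present in every library of both populations. All 26 astrocyte markers were tested, and their mean log2(FPKM + 1) ran from 3.10 to 6.36 in D (median 4.46) and from 2.86 to 4.75 in E (median 3.30). The ranges of D and E overlapped. Mature oligodendrocyte markers had a higher summed level than astrocyte markers in every library but cortex D replicate 1 (3411 against 5583 FPKM). They summed to 9219.6 against 659 FPKM in brainstem E replicate 2 and to 1649 against 1369 in brainstem D replicate 2. The lists hold 14 and 26 genes, and such sums give no share of cells. The part of oligodendrocyte RNA in these libraries was not tested. The glutamate transporter Slc1a2 was abundant in both populations, from 71.0 to 1929 FPKM in D (median 166) and from 56.7 to 651 in E (median 176). Aldh1l1, the folate enzyme whose promoter drives that reporter, was listed at 4.58 and 1.74 FPKM in the olfactory bulb, 18.9 and 0 in the cortex and 10.1 and 0.905 in the brainstem of D, and in E at 0.359 and 0.331, 3.99 and 5.36, and 1.96 and 1.78 in the same order. It was thus at 0 in cortex D replicate 2 and under 1 FPKM in brainstem D replicate 2 and both olfactory bulb E libraries. Its difference was 0.63 ± 0.68 (SE), adjusted p = 0.617, and it turned to -0.30 after quantile normalization.

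Within the astrocyte markers, 25 of 26 differences lay above 0 (88.9% of all genes), with a median of 0.97 (all genes 0.60), and 3 of 26 were higher in D at an unadjusted p under 0.05 (16.4% of all genes). Without the 2 shallowest libraries and the 2 with olfactory bulb genes the median was 0.51, against 0.52 for all genes. The median was 0.16 after quantile normalization (all genes -0.03), with 1 such gene. Mfge8, a secreted bridge for the uptake of dying cells, ran from 2.10 to 74.0 FPKM in D (median 14.04) and from 0.0979 to 13.6 in E (median 1.22), a difference of 2.28 ± 0.69 (SE), adjusted p = 0.168. Gpr37l1, a receptor of astrocytes, differed by 1.99 ± 0.73 (SE), adjusted p = 0.221. Functional groups of astrocytes lay closer to all genes. Transmitter uptake and metabolism (12 genes) had a median of 0.79 with 1 gene at an unadjusted p under 0.05, the serine and alanine transporter Slc7a10 (1.67 ± 0.69, adjusted p = 0.244). The genes of endfeet and potassium buffering (12 genes) had a median of 0.76 with 0 such genes.

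The surface proteins known from the sorting gave no difference beyond the spread. Itgav ran from 7.10 to 17.6 FPKM in D (median 9.30) and from 1.84 to 10.8 in E (median 5.70), a difference of 0.68 ± 0.63 (SE), adjusted p = 0.558. Cd63, a tetraspanin of endosomes, ran from 0 to 23.3 FPKM in D (median 8.80) and from 0 to 5.99 in E (median 4.60) and differed by 0.74 ± 0.71 (SE), adjusted p = 0.57, with 1 library of each population listed at 0. Tfrc, which takes up iron-loaded transferrin, ran from 0.401 to 9.84 FPKM in D (median 5.86) and from 0.305 to 7.67 in E (median 3.38) and differed by 0.53 ± 0.65 (SE), adjusted p = 0.659. All 3 lay above 0 as deposited and below 0 after quantile normalization (-0.07, -0.0034 and -0.17). RNA levels do not measure surface protein, and none of the 3 was called in any of the 28 alternatives.

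Immediate early genes had a median difference above that of all genes on each scale, though no member passed the adjusted test in the 12 libraries. All 15 members tested of 16 lay above 0, with a median difference of 1.76 as deposited (all genes 0.60) and 1.23 after quantile normalization (all genes -0.03). At an unadjusted p under 0.05, 11 were higher in D as deposited (16.4% of all genes) and 8 after quantile normalization (3.71% of all genes). Without cortex D replicate 2, 9 of 15 were called higher in D (11.9% of all genes), and with the spread of all 36 libraries 7 of 16 (4.44% of all genes). None was called without the 4 libraries under 5000 genes. The member not tested is Egr2, a zinc finger factor at 0.425 FPKM or below in every library.

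Promoters of 3 of these genes are shown because they carry elements through which stimulus-responsive factors are known to act. They are the 250 bases before the start site on the gene's own strand, from RefSeq on GRCm38.p6, with the element in capitals. In Dusp1, a phosphatase that switches off MAP kinases, and Btg2, an antiproliferative factor, it is the cAMP response element TGACGTCA, the site of CREB. In Zfp36, which promotes decay of AU-rich mRNAs, it is the CArG box, the site of serum response factor. The windows are chr17:26508473-26508722 for Dusp1, chr1:134079156-134079405 for Btg2 and chr7:28379229-28379478 for Zfp36, all on the minus strand.
Dusp1: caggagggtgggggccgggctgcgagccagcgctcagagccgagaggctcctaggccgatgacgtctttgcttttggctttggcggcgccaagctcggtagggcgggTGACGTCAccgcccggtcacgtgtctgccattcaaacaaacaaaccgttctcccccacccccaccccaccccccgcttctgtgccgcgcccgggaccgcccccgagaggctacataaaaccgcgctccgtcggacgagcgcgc
Btg2: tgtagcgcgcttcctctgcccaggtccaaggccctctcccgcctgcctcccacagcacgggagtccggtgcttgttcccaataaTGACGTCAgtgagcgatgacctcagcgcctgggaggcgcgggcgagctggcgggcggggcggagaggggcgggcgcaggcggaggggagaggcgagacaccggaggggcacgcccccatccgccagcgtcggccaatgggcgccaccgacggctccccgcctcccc
Zfp36: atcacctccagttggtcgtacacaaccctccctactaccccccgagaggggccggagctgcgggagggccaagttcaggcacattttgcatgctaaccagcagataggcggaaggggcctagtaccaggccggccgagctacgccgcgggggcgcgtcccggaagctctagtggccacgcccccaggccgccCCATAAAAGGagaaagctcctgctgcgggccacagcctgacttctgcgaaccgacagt
Of the 16 listed genes, 13 matched the promoter table. Searched on both strands, TGACGTCA was present in 2 of them and in 1.55% of all 32851 promoters, and the CArG box in 2 (Zfp36 and Egr2) and in 1.47%. The counts are of genes, where any promoter of a gene could match, and the shares are of promoters, which belong to 27025 symbols. The counts and shares are thus in unlike units. The element lies 143 bases before the start site in Dusp1, 166 in Btg2 and 58 in Zfp36, counted from its first base. A match describes the letters of the window and is no measured site.

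Dusp1, Zfp36 and Ier2 show the pattern in single libraries. Zfp36 was listed at 30.5 and 49.3 FPKM in the olfactory bulb, 27.6 and 23.6 in the cortex and 70.0 and 5.17 in the brainstem of D and at 0 and 4.21, 9.04 and 9.78, and 8.06 and 2.63 in the same order in E. Only brainstem D replicate 2, at 5.17, fell inside the range of E, and the difference was 2.45 ± 0.71 (SE), adjusted p = 0.154, called in 3 of 28 alternatives. Dusp1 was listed at 37.5 and 46.5 FPKM in the olfactory bulb, 16.6 and 18.7 in the cortex and 100.1 and 20.7 in the brainstem of D and at 0.3 and 12.3, 20.5 and 4.55, and 16.2 and 0.449 in E. Cortex E replicate 1, at 20.5, lay above both cortex D libraries, and the difference was 2.45 ± 0.75 (SE), adjusted p = 0.168. Ier2, an early response regulator, was listed at 7.40 and 20.3 FPKM in the olfactory bulb, 0.115 and 0.497 in the cortex and 9.70 and 4.66 in the brainstem of D and at 0 in all 6 libraries of E. On the log2(FPKM + 1) scale, where a value against a group at 0 depends on the pseudocount and is no fold, its difference was 2.36 ± 0.60 (SE), adjusted p = 0.115, called in 3 of 28 alternatives, and its cortex D libraries were themselves under 1 FPKM. Btg2 ran from 0.114 to 5.41 FPKM in D (median 1.89) and from 0 to 2.99 in E (median 0.579) and differed by 0.70 ± 0.60 (SE), adjusted p = 0.523, with -0.02 after centring by GC content.

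Factors of the AP-1 complex lay above 0 as well, with sizes that varied. Fos ran from 6.10 to 53.7 FPKM in D (median 10.8) and from 0 to 9.74 in E (median 4.12), a difference of 2.04 ± 0.71 (SE), adjusted p = 0.208. The highest Fos values, 53.7 and 39.8, were those of olfactory bulb D replicate 2 and brainstem D replicate 1. The other 4 libraries of D lay between 6.10 and 11.5, and 3 libraries of E lay between 6.58 and 9.74 in the same range. Junb stayed under 8 FPKM, with a lowest D value of 0.474 above a highest E value of 0.19. Egr1, a zinc finger factor, ran from 2.45 to 135 FPKM in D (median 29.5) and from 8.24 to 21.7 in E (median 13.3) and differed by only 1.02 ± 0.71 (adjusted p = 0.425). Klf4, a Krüppel-like factor, differed by 2.10 ± 0.62 (SE), adjusted p = 0.155. Nr4a1, an orphan nuclear receptor, differed by 1.97 ± 0.60 (SE), adjusted p = 0.167. Dusp1, Fos, Egr1, Btg2 and Junb, and Slc1a2 above, were named after their values were seen.

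**Figure D2:**
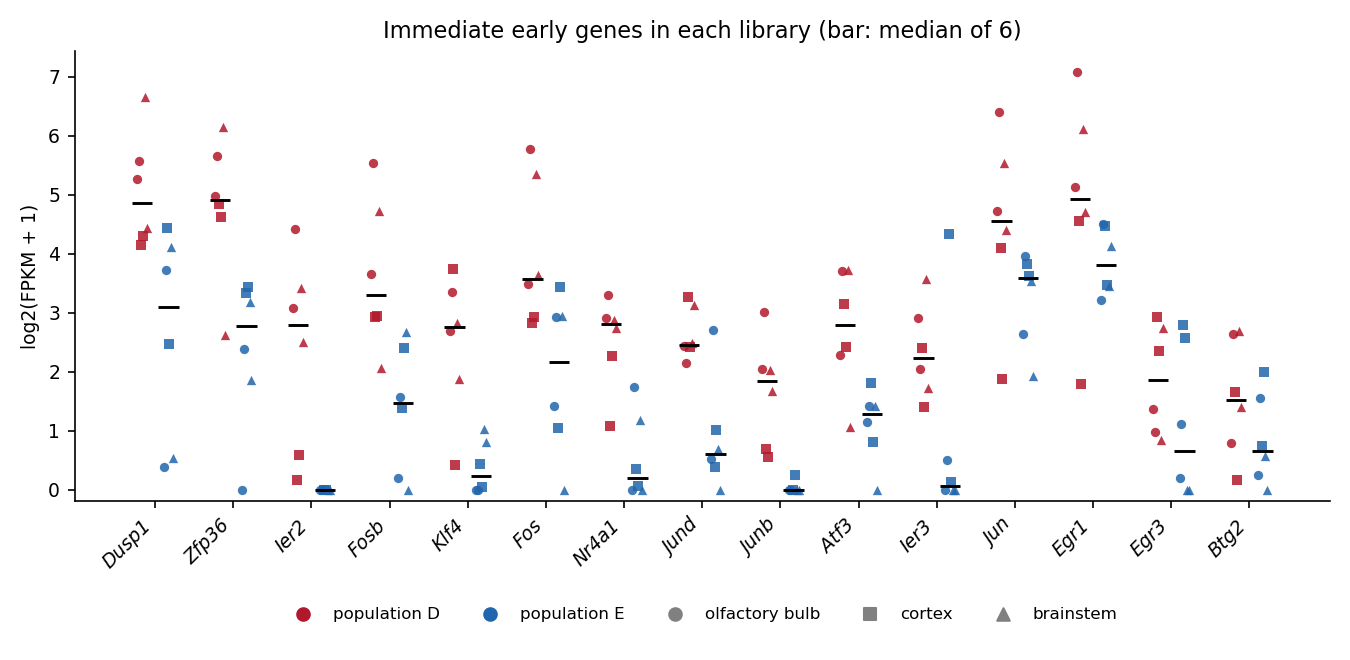
Level of each of the 15 immediate early genes tested, as log2(FPKM + 1), in every library of D (red) and E (blue), ordered by the size of the difference, with the bar at the median of 6 libraries. The median of D lies above that of E for every gene, while single libraries overlap for most, and Ier2 is at 0 in all libraries of E.

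The median of the list was 1.87 without brainstem D replicate 2 and cortex E replicate 2, 1.76 without the 2 shallowest libraries and 1.76 without all 4, with 10, 10 and 9 of 15 genes higher in D at an unadjusted p under 0.05 (17.6%, 6.84% and 6.73% of all genes). Centring each library within bins of transcript GC content, an alternative added after the data were seen, gave 0.86 with 5 such genes, against 2.66% of all genes higher in D and 3.46% higher in E. The list's summed level was from 80.3 to 483 FPKM in D and from 17.6 to 95.6 in E. The lowest sum of D, 80.3 in cortex D replicate 2, lay below the highest of E, 95.6 in cortex E replicate 1. Heat shock genes, another set that responds to handling of cells, had a median of 1.21 as deposited and 0.49 after quantile normalization. At an unadjusted p under 0.05, 7 and 1 of 15 were higher in D (16.4% and 3.71% of all genes). Hspe1, the mitochondrial co-chaperonin, differed by 2.04 ± 0.62 (SE), adjusted p = 0.167. The small chaperone Hspb1 differed by 1.88 ± 0.60 (adjusted p = 0.182) and the co-chaperone Bag3 by 1.75 ± 0.63 (adjusted p = 0.217).

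Nuclear genes of oxidative phosphorylation had the highest list median as deposited among lists with 10 or more genes tested. All 20 lay above 0, with a median of 1.85 as deposited and 0.97 after quantile normalization, where 17 remained above 0. At an unadjusted p under 0.05, 13 were higher in D as deposited (16.4% of all genes) and 7 after quantile normalization (3.71%). None passed the adjusted test in the 12 libraries, 12 of 20 were called without cortex D replicate 2 (11.9% of all genes), and 8 of 20 with the spread of all 36 libraries (4.44%). The called genes of the last fit span complex I (Ndufa2, Ndufb8), complex III (Uqcrc1), complex IV (Cox4i1, Cox5a, Cox6c) and the ATP synthase (Atp5a1, Atp5e). No gene of the list was called without the 4 libraries under 5000 genes. Genes encoded by the mitochondrial genome were not tested one by one, because most libraries list part of them without an estimate.

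Atp5e, the epsilon subunit of the ATP synthase, was listed at 22.6 and 24.0 FPKM in the olfactory bulb, 160.2 and 2.87 in the cortex and 68.4 and 47.3 in the brainstem of D and at 1.86 and 16.2, 0 and 3.72, and 4.42 and 0 in the same order in E. Cortex D replicate 2, at 2.87, lay inside the range of E, the other 5 libraries of D lay above all of E, and the difference was 3.32 ± 0.78 (SE), adjusted p = 0.111. Uqcrc1, a core protein of complex III, was at 0 in cortex D replicate 2, between 9.30 and 20.8 FPKM in the other 5 libraries of D, and at 0 or up to 1.09 in E. It differed by 2.71 ± 0.66 (SE), adjusted p = 0.111, and both genes were called in 3 of 28 alternatives. Ndufb8, an accessory subunit of complex I, differed by 2.93 ± 0.78 (SE), adjusted p = 0.135. Ndufa2, of the same complex, differed by 2.55 ± 0.70 (SE), adjusted p = 0.137. The abundant Cox4i1 of complex IV, named after its values were seen, ran from 45.2 to 326 FPKM in D (median 111) and from 16.3 to 105 in E (median 22.9) and differed by 1.99 ± 0.64. Cortex E replicate 1, at 105 FPKM, lay within the range of D.

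Other housekeeping groups lay between oxidative phosphorylation and all genes. Glycolysis, glycogen and lactate genes (19 tested) had a median of 1.17, with 5 higher in D at an unadjusted p under 0.05, and 0.39 with 2 after quantile normalization. The shares over all genes were 16.4% and 3.71%, which also apply to the lysosomal and ribosomal counts below. Slc2a1, the glucose transporter of the blood-brain barrier and of astrocytes, was listed at 23.3 and 22.5 FPKM in the olfactory bulb, 39.8 and 26.7 in the cortex and 60.2 and 32.5 in the brainstem of D and at 3.21 and 8.61, 6.44 and 7.43, and 8.49 and 0.726 in E. Every library of D lay above every library of E, and the difference was 2.49 ± 0.66 (SE), adjusted p = 0.135, called in 3 of 28 alternatives. Pyruvate kinase (Pkm) differed by 2.10 ± 0.66 (adjusted p = 0.171). Lysosomal genes (20) had a median of 1.20 with 5 such genes, and 0.43 with 1 after quantile normalization, among them the protease Ctsa (2.07 ± 0.64) and the hexosaminidase subunit Hexa (1.20 ± 0.46). Cytosolic ribosomal proteins (17 tested of 20) stood near all genes, at 0.77 and 0.09, with 3 and 2 such genes. Rpl32, of the large subunit, differed by 1.89 ± 0.69 (adjusted p = 0.221).

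Markers of endothelial cells had a median difference above that of all genes, and no member passed the adjusted test in the 12 libraries. All 14 lay above 0, with a median difference of 1.17 as deposited and 0.72 after quantile normalization, and 9 and 4 were higher in D at an unadjusted p under 0.05 (16.4% and 3.71% of all genes). The summed level of the 14 was from 42.8 to 123 FPKM in D and from 1.82 to 28.8 in E, so that every library of D lay above every library of E. Without cortex D replicate 2, 6 of 14 were called (11.9% of all genes), and 6 of 14 with the spread of all 36 libraries (4.44%). None was called without the 4 libraries under 5000 genes. Ly6c1, a surface protein of brain endothelium, ran from 2.00 to 42.5 FPKM in D (median 19.1) and from 0 to 8.59 in E (median 4.86) and differed by 2.19 ± 0.65 (SE), adjusted p = 0.154. Cdh5, the cadherin of endothelial junctions, ran from 2.80 to 9.03 FPKM in D (median 3.87) and from 0 to 1.46 in E (median 0.564). Its libraries did not overlap between D and E, and it differed by 1.87 ± 0.58 (SE), adjusted p = 0.171. The organic anion transporter Slco1a4 differed by 1.96 ± 0.62 (adjusted p = 0.174). Cldn5, the tight junction claudin, was at 0 in cortex D replicate 2 and in 4 libraries of E and differed by 1.83 ± 0.59 (adjusted p = 0.184). The part of endothelial RNA in the differences of other genes was not tested.

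Other vascular and blood lists rested on fewer genes. Of 12 mural cell markers 7 were tested, with a median of 0.97 and 3 higher in D at an unadjusted p under 0.05 (16.4% of all genes), and a median of 0.38 with 0 such genes after quantile normalization. Vtn, the vitronectin of pericytes, ran from 0 to 50.5 FPKM in D (median 24.1) and from 0.296 to 18.2 in E (median 2.50) and differed by 1.91 ± 0.80 (adjusted p = 0.247). Of 7 blood cell markers 4 were tested, with a median of 1.22 and 2 such genes as deposited, and 0.59 with 0 after quantile normalization. The beta globin Hbb-bs ran from 5.07 to 60.2 FPKM in D (median 14.4) and from 0 to 37.4 in E (median 3.18) with a difference of 1.75 ± 0.67 (adjusted p = 0.225). Counts of near-identical globins can be split between copies. Transthyretin (Ttr), a product of the choroid plexus named after its values were seen, ran from 0.792 to 3559 FPKM in D (median 116) and from 0 to 453 in E (median 92.2) and was high in cortex D replicate 1 and brainstem D replicate 1. Its difference was 1.49 ± 1.16 (adjusted p = 0.479).

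Markers of microglia and macrophages had a list median below that of all genes, with single members above it. The 17 tested of 18 had a median of 0.45 as deposited (all genes 0.60) and -0.23 after quantile normalization (all genes -0.03). At an unadjusted p under 0.05, 5 and 2 were higher in D (16.4% and 3.71% of all genes). In E, 0 and 1 were higher (0.102% and 2.07% of all genes). The summed level was from 58.9 to 322 FPKM in D and from 32.6 to 98.1 in E. C1qc, a chain of complement C1q, ran from 2.09 to 47.6 FPKM in D (median 12.5) and from 0 to 3.85 in E (median 0.859) and differed by 2.69 ± 0.68 (SE), adjusted p = 0.115. Fcer1g, the common Fc receptor gamma chain, was at 0 in cortex D replicate 2 and between 8.99 and 19.8 FPKM in the other libraries of D. In E it was at 10.4 in cortex E replicate 2 and at 0 in the other 5, a difference of 2.64 ± 0.73 (SE), adjusted p = 0.137. C1qb and the lysosomal glycoprotein Cd68 differed by 2.04 ± 0.71 and 1.80 ± 0.68. The integrin Itgam, of the same list, pointed the other way and is given with the genes of E.

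Oligodendrocyte lineage markers were listed by stage. The precursor list (12 tested of 13) had a median of 0.82 as deposited and 0.32 after quantile normalization. Both lay above the medians of all genes, 0.60 and -0.03. At an unadjusted p under 0.05, 4 and 2 genes were higher in D (16.4% and 3.71% of all genes). Olig2, a lineage factor also present in some astrocytes, was listed at 10.4 and 2.54 FPKM in the olfactory bulb, 2.81 and 3.12 in the cortex and 10.5 and 29.8 in the brainstem of D and at 0 and 0, 0.12 and 1.13, and 2.01 and 0.419 in E. All 6 libraries of D lay above all 6 of E, and the difference was 2.40 ± 0.62 (SE), adjusted p = 0.119, called in 3 of 28 alternatives. Sox10 ran from 0 to 31.8 FPKM in D (median 12.7) and from 0 to 13.9 in E (median 0.989) and C1ql1, a secreted C1q-like protein, was at 0 to 4.47 FPKM in D and at 0 in all of E. They differed by 1.84 ± 0.76 and 1.43 ± 0.46, with adjusted p of 0.243 and 0.186. At an unadjusted p under 0.05, 2 of 14 mature oligodendrocyte markers were higher in D (16.4% of all genes). They were the transferrin gene Trf (2.08 ± 0.70) and the myelin enzyme Cnp (1.77 ± 0.66). The median of the mature list was 0.44, below that of all genes. That order turned without the 2 libraries with olfactory bulb genes, where the list median was 1.02 and that of all genes 0.67, and the list median was 0.13 without the 2 shallowest libraries. Their summed level was from 1649 to 11492 FPKM in D and from 737 to 9219.6 in E.

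Neuronal genes were present in every library, with list medians near or below that of all genes (0.60 as deposited, -0.03 after quantile normalization). Pan-neuronal markers (20) had a median of 0.69 as deposited and -0.08 after quantile normalization. At an unadjusted p under 0.05, 2 and 0 were higher in D (16.4% and 3.71% of all genes). Excitatory neuron markers (8 tested of 12) had a median of 0.32 and -0.13, with 3 and 0 such genes. Inhibitory neuron and bulb interneuron markers (15 tested of 16) had a median of 0.45 and 0.01, with 2 and 1 such genes. The next sum is that of the pan-neuronal markers. The summed level of the pan-neuronal markers was from 254 to 459 FPKM in D and from 85.5 to 749.7 in E. Synaptic vesicle genes (20) had a median of 0.49 and -0.26, with 0 higher in D in either scale and 0 and 1 higher in E. The vesicle protein Vamp2 ran from 35.6 to 95.6 FPKM in D (median 65.8) and from 2.68 to 75.1 in E (median 44.5) and differed by 1.33 ± 0.66 (adjusted p = 0.303). Rab3a, a vesicle GTPase, pointed the other way at -0.97 ± 0.78 (adjusted p = 0.499), with its highest value, 75.2 FPKM, in brainstem E replicate 2. Camk2a, the kinase of excitatory synapses, ran from 8.35 to 217 FPKM in D (median 83.8) and from 1.39 to 272 in E (median 48.6) and differed by 1.43 ± 0.69 (adjusted p = 0.295). Among 17 subunits of glutamate and GABA receptors 3 were higher in D at an unadjusted p under 0.05 (16.4% of all genes). They include the kainate receptor subunit Grik5 (2.12 ± 0.63, adjusted p = 0.154).

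Signalling, matrix and lipid genes gave lists close to all genes, and the members given were named for their small p. Extracellular matrix and adhesion genes (18 tested of 19) had a median of 0.83 and 0.12. At an unadjusted p under 0.05, 4 and 1 were higher in D. The shares over all genes were 16.4% and 3.71%, which also apply to the other counts of this paragraph. Fibronectin (Fn1) ran from 0.883 to 13.5 FPKM in D (median 8.04) and from 0 to 1.94 in E (median 0.619) and differed by 2.10 ± 0.64 (SE), adjusted p = 0.167. Brevican (Bcan), a proteoglycan of perineuronal matrix, differed by 1.71 ± 0.70, and the link protein Hapln2 by 1.42 ± 0.53. Of 9 targets of Notch and BMP signalling tested, 2 were higher in D at an unadjusted p under 0.05 on both scales and neither passed the adjusted test, the inhibitor Id1 (2.02 ± 0.61) and the repressor Hes5 (1.78 ± 0.56). Hes5 stayed under 0.5 FPKM in every library of E and ran from 0 to 5.45 in D. Srebf2, which drives cholesterol synthesis, ran from 4.46 to 21.2 FPKM in D (median 9.59) and from 0.241 to 3.71 in E (median 2.36). Its libraries did not overlap, and it differed by 1.92 ± 0.64 (SE), adjusted p = 0.2, while the 15 tested genes of the cholesterol list had a median of 0.87 and 0.03. Antigen presentation and interferon genes (12 tested of 18) had a median of 0.64 and 0.15, with 4 and 2 higher in D, among them the class I genes H2-K1 (2.37 ± 0.73) and H2-D1 (2.07 ± 0.71), paralogs whose reads can be split between them. Of 18 reactive astrocyte genes 10 were tested, with a median of 0.70 and 0.01. Genes by which astrocytes promote synapses (20 tested of 22) had a median of 0.61 and -0.04, with 1 and 0 higher in D. Of 16 cell cycle genes 5 were tested, with a median of 0.59.

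Long noncoding RNAs of nuclei (11 tested of 14) had a median of 1.29 as deposited and 0.43 after quantile normalization. At an unadjusted p under 0.05, 4 and 1 were higher in D (16.4% and 3.71% of all genes). Malat1, retained in nuclear speckles, ran from 251 to 1070.2 FPKM in D (median 664) and from 107 to 558 in E (median 185) and differed by 1.29 ± 0.55 (adjusted p = 0.257). Pantr1 differed by 2.07 ± 0.66 (adjusted p = 0.182). A further noncoding locus, Gm26917 (chr17:39843013-39846341), known to hold ribosomal RNA repeats and named after its values were seen, took a large part of the signal in some libraries. It was listed at 10014 and 1794 FPKM in the olfactory bulb, 19061 and 503 in the cortex and 10021 and 11401 in the brainstem of D and at 725 and 1103, 1810.2 and 701, and 1248 and 326 in E. In D 4 libraries, all but olfactory bulb replicate 2 and cortex replicate 2, lay above every library of E, as did olfactory bulb replicate 2 but for cortex E replicate 1, while cortex D replicate 2 lay below 5 of the 6 libraries of E. The difference was 2.59 ± 0.60 (SE), adjusted p = 0.111, and it was the single gene called when olfactory bulb D replicate 2 was left out.

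**Figure D3:**
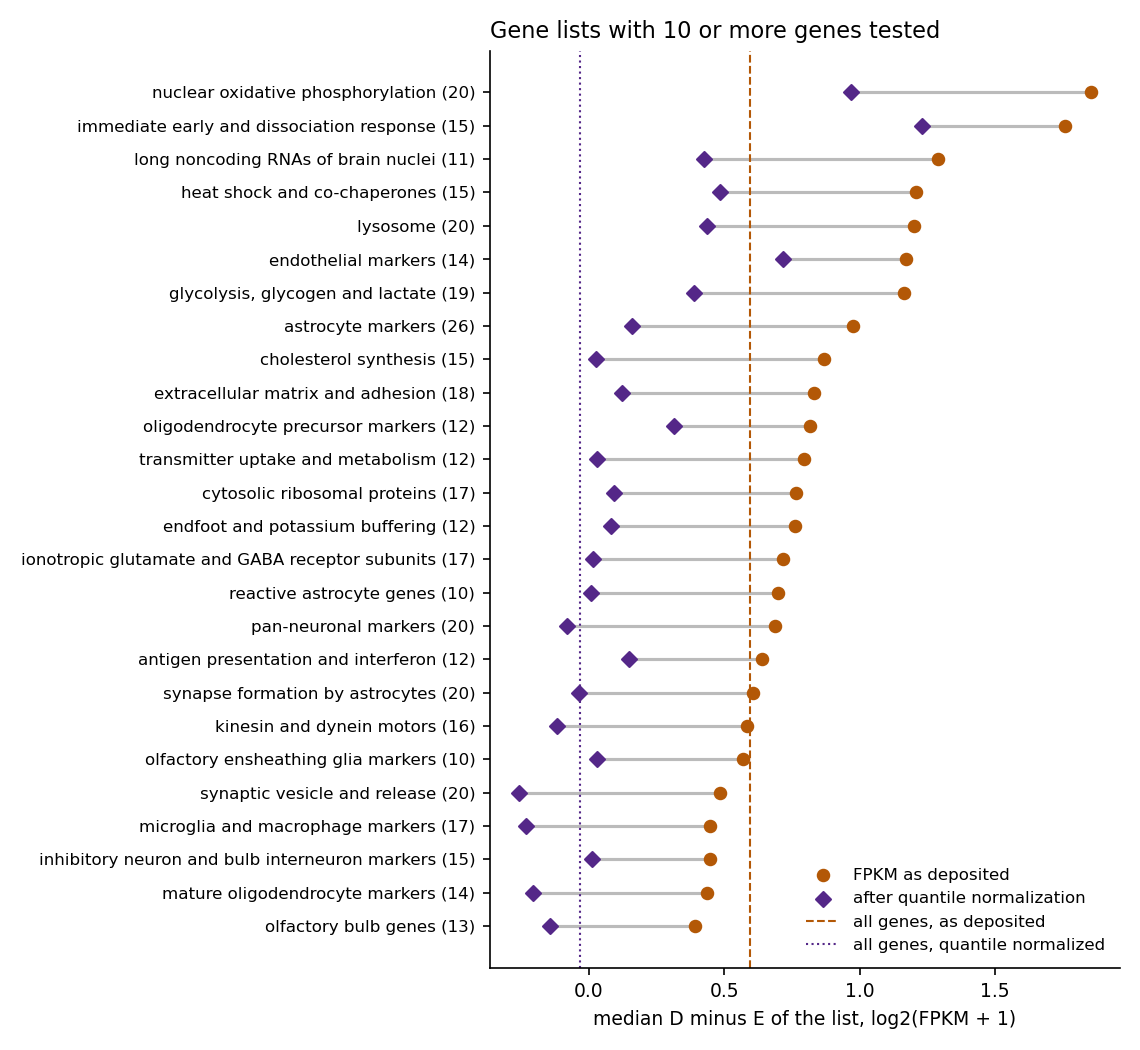
Median D minus E difference on the log2(FPKM + 1) scale for each gene list with 10 or more genes tested (number in brackets), as deposited (orange circles) and after quantile normalization (purple diamonds), with the medians of all 10748 genes as vertical lines. Oxidative phosphorylation and immediate early genes lie farthest to the right on both scales, and synaptic vesicle genes lie left of all genes on both.

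The 14 genes named for the smallest p in the direction of D all had an adjusted p of 0.111 in the 12 libraries. Phlda1 (chr10:111506286-111508645 in GRCm38, plus strand), a pleckstrin homology-like protein induced by growth factors, was listed at 25.7 and 22.8 FPKM in the olfactory bulb, 34.9 and 48.7 in the cortex and 18.4 and 16.7 in the brainstem of D and at 0.788 and 1.71, 0 and 48.0, and 0 and 0 in the same order in E. Cortex E replicate 2 thus reached the level of the highest D library, while the other 5 libraries of E were at 1.71 or below. The difference was 3.44 ± 0.72 (SE), adjusted p = 0.111, it was 2.79 after quantile normalization, and it was called in 6 of 28 alternatives, the most of any gene named here. It was the single gene called without cortex E replicate 2, and also without that library and brainstem D replicate 2.

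Of these 14 genes, which were chosen for their p in this direction, 6 had no overlap between libraries of D and E (0.921% of all genes). Agrn, the agrin of basement membranes and synapses, ran from 9.45 to 22.9 FPKM in D (median 12.1) and from 0 to 2.90 in E (median 0.906), a difference of 2.77 ± 0.63. Ece1, the endothelin-converting enzyme, ran from 11.4 to 30.5 FPKM in D (median 22.6) and from 0.379 to 5.81 in E (median 2.52), a difference of 2.80 ± 0.64. Ftl1, the ferritin light chain that stores iron, ran from 33.3 to 73.5 FPKM in D (median 44.0) and from 0.625 to 19.0 in E (median 7.15), a difference of 2.71 ± 0.66. The other 3 were Banf1, which binds DNA at the nuclear envelope (2.83 ± 0.63), Cisd1, an iron-sulfur protein of the outer mitochondrial membrane (2.69 ± 0.63), and Nabp2, a protein that binds single-stranded DNA (2.71 ± 0.66). Ferritin belongs to a family with many processed copies, so its values are uncertain.

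Beside Phlda1, the other 7 of the 14 overlapped in 1 or more libraries. With Atp5e and Uqcrc1 they include Atp5mpl, another small subunit associated with the ATP synthase, which ran from 8.74 to 117 FPKM in D (median 46.3) and from 0 to 16.6 in E (median 4.83) and differed by 3.22 ± 0.73. Aldh2, the mitochondrial aldehyde dehydrogenase, ran from 5.09 to 26.5 FPKM in D (median 12.2) and from 0 to 5.21 in E (median 0.859) and differed by 2.76 ± 0.64. The small nucleolar RNA host gene Snhg8 differed by 2.67 ± 0.63. Both remaining genes act in innate immunity. Pglyrp1, a peptidoglycan recognition protein, was listed at 0 in all libraries of E and in cortex D replicate 2 and ran from 2.52 to 21.7 FPKM in the other libraries of D, a difference of 2.63 ± 0.65. The chemokine Ccl3 ran from 3.60 to 17.6 FPKM in D (median 10.6) and from 0 to 4.08 in E (median 0.196) and differed by 2.52 ± 0.62. Each of the 13 genes other than Phlda1 was called in 3 of 28 alternatives.

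At an unadjusted p under 0.05 few genes lay toward E as deposited (11), and more did so after quantile normalization (223) and after centring by GC content (372). Ddx19a (chr8:110974996-110997800), an RNA helicase of mRNA export, had the smallest p and was listed at 0.607 and 0.0574 FPKM in the olfactory bulb, 2.10 and 2.46 in the cortex and 0.853 and 1.03 in the brainstem of D and at 7.74 and 6.42, 8.51 and 4.23, and 1.15 and 12.6 in the same order in E. All libraries of D were at 2.46 FPKM or below, and 5 of 6 of E were at 4.23 or above, the exception being brainstem E replicate 1. The difference was -1.74 ± 0.62 (SE), adjusted p = 0.215, and it was -2.27 after quantile normalization. It was called in 3 of 28 alternatives, the fit of all 36 libraries among them, where the other 2 genes called higher in E were Zfp280b and Gm28592. Without cortex D replicate 2 the 2 genes called higher in E were Ddx19a and Gm28592, which was listed at 0 in all libraries of D and at 3.55, 19.7 and 50.7 FPKM in 3 of E. Zfp280b and Gm28592 were named after their values were seen.

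The other 13 genes named in the direction of E had unadjusted p from 0.0546 to 0.376 as deposited. After quantile normalization their values are lower, as is the median of all genes. Svip, an inhibitor of protein degradation at the endoplasmic reticulum, ran from 4.56 to 8.74 FPKM in D (median 5.87) and from 3.18 to 34.2 in E (median 14.6) and differed by -0.89 ± 0.68 as deposited and -1.57 after quantile normalization. Plekhb2, a membrane protein of endosomes, differed by -0.89 ± 0.69 and -1.63. Ppp3r1, the regulatory subunit of calcineurin, ran from 3.09 to 12.7 FPKM in D (median 10.2) and from 3.75 to 23.8 in E (median 16.1) and differed by -0.80 ± 0.66 and -1.47, and its sign turned when the highest transcript stood for the gene. The same turn held for Rcan2, which regulates calcineurin (-0.71 ± 0.71). Lin7c, a scaffold of cell polarity, differed by -0.68 ± 0.65 and -1.35, and Erbin, a scaffold at basolateral membranes, by -0.65 ± 0.66 and -1.36. None of these was called under any of the 28 alternatives.

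The remaining genes of this direction varied between the libraries of E. Galnt4, an enzyme of O-glycosylation, was at 29.7 FPKM in brainstem E replicate 2 and at 2.83 or below in the other 11 libraries. Ccnq, an atypical cyclin, was at 24.5 in the same library and at 3.00 or below elsewhere. Isg15, a ubiquitin-like protein induced by interferon, reached 23.4 in olfactory bulb E replicate 2 and was at 0 in 2 libraries of each population. The microglial integrin Itgam ran from 0.0704 to 18.8 FPKM in D (median 2.55) and from 0.672 to 10.4 in E (median 6.07) and differed by -0.68 ± 0.69. Gpatch4, Zranb1 and Tmem234 differed by -0.85 ± 0.69, -0.69 ± 0.64 and -0.67 ± 0.75.

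**Figure D4:**
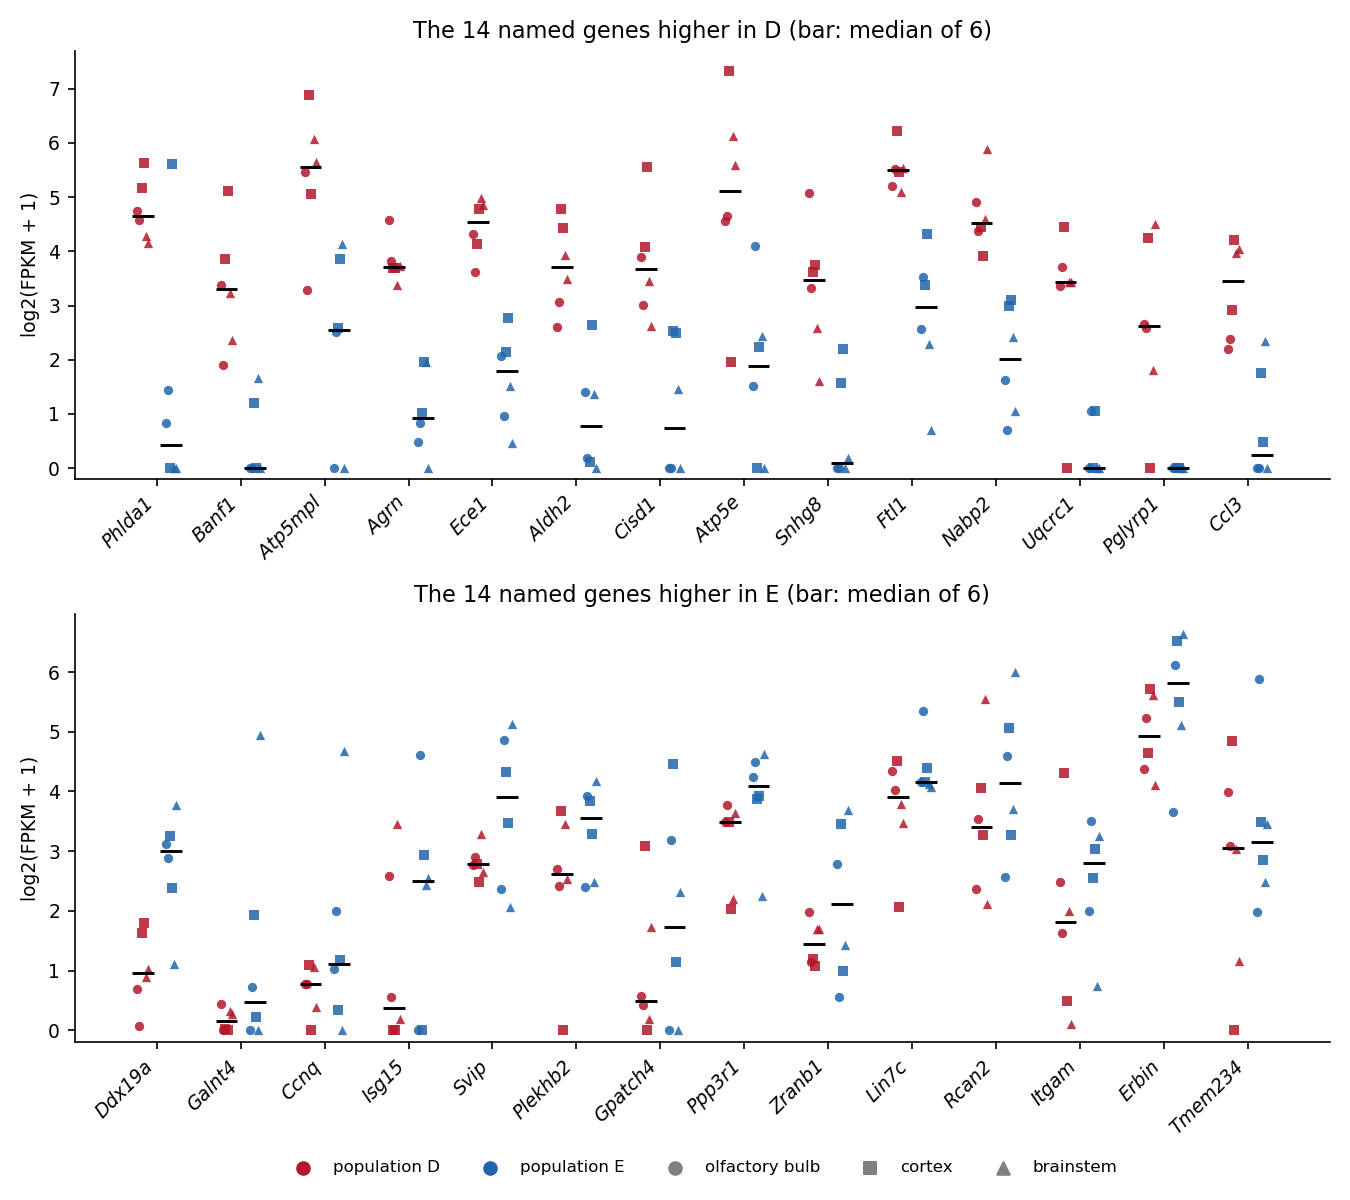
Levels, as log2(FPKM + 1), of the 14 genes named in the direction of D (upper panel) and of E (lower panel) in every library, red for D and blue for E, with the bar at the median of 6. In the upper panel 6 genes have every library of D above every library of E, and in the lower panel the populations overlap for all 14.

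The difference between D and E was also compared across the 3 regions. The limma F test of population by region called 0 of 10748 genes (0%) at an adjusted p under 0.05 (smallest 0.886), with 431 (4.01%) at an unadjusted p under 0.05. With the spread of all 36 libraries it called 8 genes. Rtca, an RNA cyclase, had the smallest p among the genes named for it and was listed at 5.88 and 4.78 FPKM in the olfactory bulb, 0.212 and 0 in the cortex and 0.937 and 2.16 in the brainstem of D and at 0 and 0.363, 23.0 and 7.94, and 0 and 0.0641 in E. It was higher in D in the olfactory bulb and brainstem and higher in E in the cortex (unadjusted p = 0.000283, adjusted p = 0.886). Rtl8c, a gene derived from a retrotransposon, was listed only in cortex D, at 9.67 and 88.5 FPKM, and at 0 in the other 10 libraries. Frzb, a secreted inhibitor of Wnt signals, ran higher in D in brainstem (3.27) and olfactory bulb (0.93) and lower in cortex (-3.30). Lhfp, Slc25a35 and Timm8b showed the same signs, with cortex differences of -2.20, -3.25 and -3.34. In Frzb and Slc25a35 the values of brainstem D replicate 2 and cortex E replicate 2, the libraries with olfactory bulb genes, were the highest of D and of E.

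The size of the D minus E difference varied with the base composition of the transcripts. Across the 10748 genes, which are not independent replicates, Spearman's rho with GC content was 0.27 as deposited and 0.32 after quantile normalization. With transcript length, rho was -0.10 as deposited and -0.18 after quantile normalization, so that shorter transcripts lay somewhat more toward D. The median difference went from 0.38 in the lowest of 10 equal bins of GC content to 0.82 in the highest. Oxidative phosphorylation genes had a median GC content of 51.7%, immediate early genes 54.6% and endothelial markers 49.9%, against 49.2% for all genes tested. With each library centred within bins of GC content, 286 genes were higher in D and 372 higher in E at an unadjusted p under 0.05, and 0 were called. The list medians were then 1.01 for oxidative phosphorylation with 8 of 20 genes higher in D, 0.86 for immediate early genes with 5 of 15, and 0.64 for endothelial markers with 5 of 14, against -0.06 for all genes. The part of base composition or transcript length in the difference of a single gene was not tested.

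**Figure D5:**
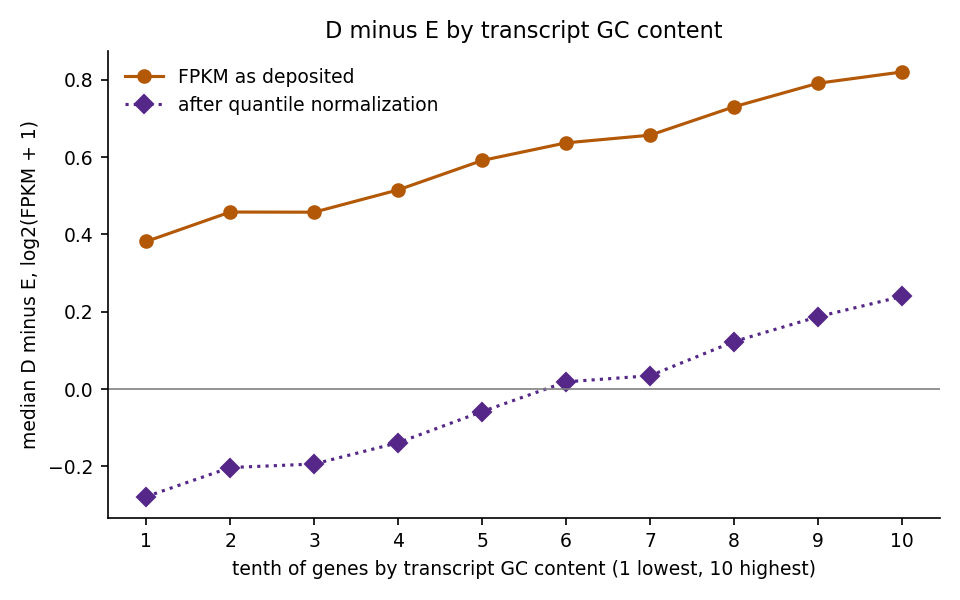
Median D minus E difference on the log2(FPKM + 1) scale in 10 equal bins of the 10748 genes by transcript GC content, as deposited (circles) and after quantile normalization (diamonds). The median goes from 0.38 in the lowest bin to 0.82 in the highest as deposited, and from -0.28 to 0.24 after quantile normalization.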

How the data were processed

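RNA from sorted cells was amplified with random and oligo-dT primers, per the labels' protocols, without a stated strand. The submitters' processing notes name bcl2fastq 1.8.3, TopHat and Cufflinks, and mm10. FPKM per transcript, with coverage as a signal, is what the authors deposited, so read counts are not known. The 63241 transcripts were assigned by position to genes of GENCODE vM21 (83.1% assigned, 25460 genes), FPKM was summed per gene, and genes at 1 FPKM or more in at least 2 of the 12 libraries were tested. limma 3.58.1 in R 4.3.3 fitted log2(FPKM + 1) with population and region (8 residual degrees of freedom), with Benjamini-Hochberg adjustment at 0.05. The fit was tested on simulated data with a spread set below that of these libraries and no shift shared by all genes. That test therefore does not tell which differences the fit could call in these libraries. Replicates were numbered in accession order. Of 66 library pairs, 0 held identical values.

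The text names the 14 genes per direction with the smallest p (at least 5 FPKM in the higher population, the same sign in all 3 regions), 6 for the region test, up to 4 per list with the smallest p, and those said to be chosen later. In addition, 1 gene that the rule for lists would name is not reported here. The members and lists were chosen with earlier results of these data known. Alternatives covered scaling, pseudocount, filters, transcript choice, all 36 libraries, weights, GC content and left-out libraries. Figures and tables were made with Python 3.11.15.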

Additional observations from a re-analysis of the deposited data

Results flagged for a closer look

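Among 268 groups of 6 libraries (levels of the named genes, list means and the number of genes), 27 held a highest or lowest library set far apart from the other 5. Chance alone flags about 1 in 20 such groups, and the groups share libraries. Cortex D replicate 2 was the library concerned in 12 of the 27, cortex E replicate 2 in 6, olfactory bulb E replicate 2 in 2, brainstem E replicate 1 in 3, and brainstem D replicate 2, brainstem E replicate 2, cortex E replicate 1 and olfactory bulb D replicate 1 in 1 each.

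Cortex D replicate 2 was the lowest library of D in all 12. It held 2999 genes at 1 FPKM or more against 7704 to 8691 in the others. Fcer1g, Hspb1, Id1, Ndufb8, Plekhb2, Uqcrc1 and Vtn were listed at 0 in it, and Tfrc was at 0.401 FPKM. Its mean log2(FPKM + 1) was 0.60 for Notch and BMP targets, 1.97 for heat shock genes and 0.41 for reactive astrocyte genes, against lowest values of 2.28, 3.22 and 1.09 in the other libraries of D.

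Cortex E replicate 2 was the highest library of E for Phlda1 (48.0 FPKM, others 0 to 1.71), Fcer1g (10.4, others at 0), Sox10 (13.9), Hspe1 (3.05), Hes5 (0.480) and Junb (0.190). Brainstem E replicate 1 was highest for Id1 (1.89 FPKM) and for the mean of hindbrain factors (0.10 on the log2 scale), and lowest for Ppp3r1 (3.75 FPKM). Olfactory bulb E replicate 2 was highest for Lin7c (39.8 FPKM) and Bag3 (5.50 FPKM). Cortex E replicate 1 was highest for Cox4i1 (105 FPKM), olfactory bulb D replicate 1 was highest for Agrn (22.9 FPKM), brainstem D replicate 2 was highest for Zfp280b (0.796 FPKM), and Cd63 was listed at 0 in brainstem E replicate 2.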

How the results depend on the processing

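The number of genes called was 0 in each direction in 21 of 28 alternative settings. Genes called higher in D numbered 603 with the spread of all 36 libraries, 2364 with array quality weights, and 1 (Phlda1) without brainstem D replicate 2 and cortex E replicate 2, with or without quantile normalization. Genes called higher in E numbered 3 with all 36 libraries and 4 with array weights, and the region test called 8 with all 36. Leaving out 1 library at a time gave 0 to 1269 genes higher in D, 0 to 2 higher in E and 0 for the region test. The highest counts came without cortex D replicate 2, and 1 gene was called without olfactory bulb D replicate 2 (Gm26917) or cortex E replicate 2 (Phlda1). The difference in genes at 1 FPKM or more ran from 2252 to 3435 with 1 library left out, and was 2045 without the 2 shallowest, passing the exact permutation test without cortex D replicate 2 or cortex E replicate 2.

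Of 89 named genes, 78 kept the sign of their difference in every alternative run for them, and 26 of 2482 values were reversed. With the highest transcript for a gene, Ppp3r1 was 0.80, Rcan2 0.81 and Slc1a2 -1.17. With array weights Itgam was 0.15 and Tmem234 0.22, and without the 4 libraries with few genes Itgam was 0.030. After quantile normalization Aldh1l1 was -0.30, Itgav -0.068, Cd63 -0.0034, Tfrc -0.17 and Slc1a2 -0.33. After rescaling each library to the same sum they were -0.55, -0.14, -0.14, -0.22 and -0.51. After quantile normalization without brainstem D replicate 2 and cortex E replicate 2, Itgav was -0.11, Cd63 -0.11, Camk2a -0.10 and Slc1a2 -0.55. After centring by GC content Aldh1l1 was -0.22, Cd63 -0.19, Btg2 -0.016 and Slc1a2 -0.053. Without the 2 shallowest and the 2 libraries with olfactory bulb genes Slc1a2 was -0.33, and -0.47 with quantile normalization too. The cause of these changes was not tested.

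No paired analysis was possible because the labels give no replicate numbers. Counts of reads are not known, and in the 2 shallowest libraries the deposited intervals are wide near 10 FPKM.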
